A study of Homo sapiens with 18 samples.

Results

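DRIP peaks of HCT116 cells treated with 10 μM camptothecin (CPT) for 60 min were set against those of cells treated with the same dose for 5 min. The DRIP lists of the 4 libraries, 2 per time, were merged wherever peaks overlapped by at least 1 bp, which gave 118584 intervals. An interval was 60-min-only when both 60 min lists and neither 5 min list had a peak in it. It was 5-min-only in the reverse case. By this rule 6053 intervals (5.10% of all) were 60-min-only and 2138 (1.80%) were 5-min-only. A further 6950 intervals (5.86%) had a peak in all 4 lists and are called shared, and the other 103443 (87.2%) were mixed, of which 81593 came from 1 library alone. The rule fixed these classes, so their sizes carry no test. HCT116 is a human colorectal carcinoma line, grown here as an unmodified culture. Both times are treated groups, harvested after a short recovery without the drug, and the untreated cells (NT) entered the rule nowhere. Each library is labelled as a biological replicate, and each has a partner whose DNA was digested with RNase H before the immunoprecipitation.

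In DRIP, the genome is cut with restriction enzymes and fragments that carry DNA-RNA hybrids are pulled down with the antibody S9.6. Hybrids form behind RNA polymerase II when the nascent RNA pairs again with its template strand, and together with the displaced strand they make an R loop. CPT traps topoisomerase I on DNA in its cleaved state, and the enzyme normally relaxes the supercoils that transcription produces. The comparison asks where hybrids were found after an hour of the drug and not after the first minutes, and the reverse.

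Because the DNA was cut with 5 restriction enzymes before the immunoprecipitation, a peak could end where a fragment ended. Of the interval edges placed at the same base by both lists of their time, 98.2% of 2079 in the 60-min-only class and 97.9% of 982 in the 5-min-only class lay exactly at a recognition site of 1 of the 5 enzymes in GRCh37. Examples from the highest intervals of both classes are shown because they set how finely an interval could be placed. Each run holds 30 bases of the plus strand around such an edge, with the recognition site in capitals. The 60-min-only edges are those of CHSY1 at chr15:101790041-101790070 (HindIII), FDXR at chr17:72859588-72859617 (HindIII) and HMGN2 at chr1:26805671-26805700 (BsrGI). The 5-min-only edges are those of NRDC at chr1:52259124-52259153 (SspI) and KTN1 at chr14:56114181-56114210 (BsrGI).
CHSY1: tacctgcattctAAGCTTttcaagccactc
FDXR: gaggggatccctAAGCTTaggagctgaggc
HMGN2: ctcatcagttgaTGTACAtttgggtgattt
NRDC: cggaaggacaaaAATATTatcaacctagct
KTN1: gtctgtaccaaaTGTACAaaattagccagg
Taking all edges, 63.8% of 60-min-only and 70.4% of 5-min-only intervals had at least 1 edge at a site, against 76.9% of shared intervals.

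The clearest difference between the classes was where they lay along genes. Intervals whose midpoint fell in exactly 1 protein-coding gene were measured from the annotated start of that gene. Of 4406 such 60-min-only intervals, 83.7% (95% Wilson interval 82.6 to 84.7%) lay within the first 20 kb of the gene, and of 1233 such 5-min-only intervals 11.3% (9.63 to 13.2%) did. The median was 8.72 kb into the gene at 60 min and 57.0 kb at 5 min. Of 4809 such shared intervals 79.7% (78.5 to 80.8%) lay within the first 20 kb, with a median of 5.28 kb. The Wilson intervals cover counting error only, and neighbouring peaks are not independent. The difference of 72.4 percentage points between 60-min-only and 5-min-only intervals was 32.0 without replicate 2 of 60 min. Without any 1 of the other libraries it was between 62.1 and 68.6.

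Split by distance, the 60-min-only class did not peak at the start itself. It held 8.17% of its intervals in the first 2 kb, 16.6% from 2 to 5 kb, 32.4% from 5 to 10 kb and 26.6% from 10 to 20 kb, then dropped to 8.65% from 20 to 50 kb. Shared intervals held 23.2% in the first 2 kb. The 5-min-only class was nearly empty where the 60-min-only class was fullest, with 1.62%, 2.19%, 1.78% and 5.68% in the same 4 distance classes, 32.9% from 20 to 50 kb and 55.8% beyond 50 kb.

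**Figure D1:**
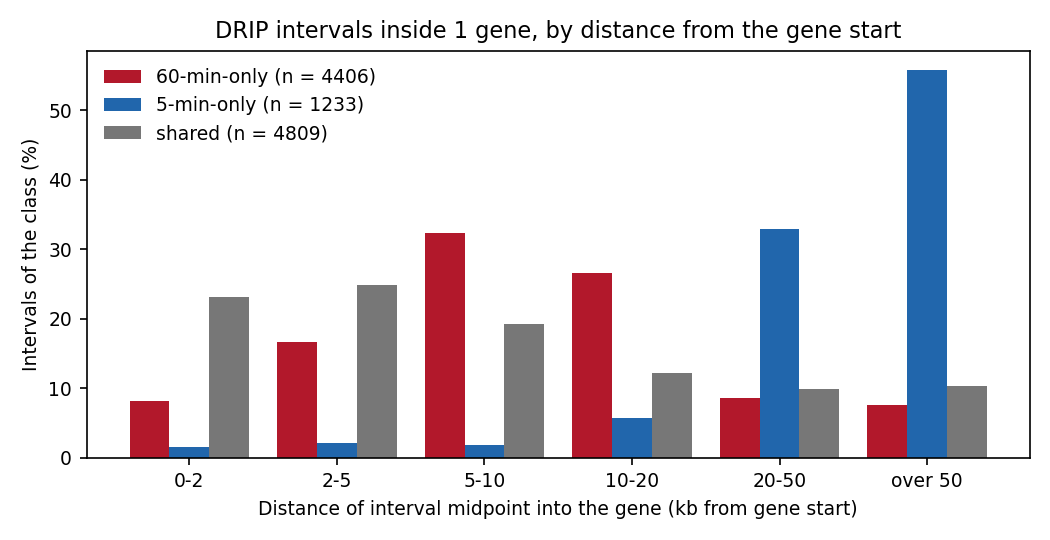
Percent of each class (y axis) by distance of the interval midpoint from the gene start in kb (x axis), for intervals inside exactly 1 gene. The 60-min-only bars are highest from 5 to 10 kb (32.4%), the shared bars from 2 to 5 kb (24.9%) and the 5-min-only bars beyond 50 kb (55.8%).

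Genes with 5-min-only intervals were longer, so the same distances were taken in genes over 50 kb alone. There 73.3% (71.3 to 75.1%) of 2116 60-min-only intervals and 5.31% (4.10 to 6.85%) of 1036 5-min-only intervals lay within the first 20 kb, with medians of 10.4 and 68.8 kb. Of 1862 shared intervals in such genes 58.2% (56.0 to 60.4%) did, with a median of 10.4 kb. As a share of gene length, the median position was 22.2% for 60-min-only, 58.8% for 5-min-only and 21.9% for shared intervals. The first 20% of the gene held 46.8% of the 60-min-only and 10.7% of the 5-min-only intervals, and the last 20% 8.03% and 24.2%.

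A protein-coding gene held a 60-min-only interval in 4043 of 20163 cases (20.1%) and a 5-min-only interval in 1157 (5.74%). Both kinds were present in 421 genes (2.09%), with a median length of 104 kb. In 350 of these, or 83.1% (79.3 to 86.4%), every 60-min-only interval was nearer to the gene start than every 5-min-only interval. The opposite order was seen in 48 genes and a mixed order in 23. The positions of the classes given above already favour the first order, and the share they alone would give was not computed. A gene of the first order is HSPA4, which encodes a chaperone of the HSP70 family. Its 3 60-min-only intervals lay 9.63, 15.8 and 19.4 kb into its 54.4 kb, and its 4 5-min-only intervals at 25.9, 32.3, 51.0 and 52.1 kb, so the positions did not mix.

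Of the genes with most intervals of a class, CDK12, HSPA4, ANKRD11 and FAM222A held both classes, all 4 in this order. CDK12, a kinase of the RNA polymerase II tail, had 1 60-min-only interval at 4.12 kb and 4 5-min-only intervals at 26.3, 33.7, 37.0 and 97.0 kb. ANKRD11, which encodes a chromatin regulator, had 5 5-min-only intervals from 69.4 to 155 kb into its 223 kb and a single 60-min-only interval at 10.6 kb. Of the ANKRD11 intervals 4 also lie in the overlapping gene ENSG00000288715, so the 2 genes cannot be told apart there. RBL1, which encodes the retinoblastoma-like protein p107, and SAE1, a subunit of the SUMO-activating enzyme, held 4 5-min-only intervals each, from 31.1 to 43.7 kb and from 39.1 to 78.1 kb, and no 60-min-only one.

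On the 60-min side, NRTN, the gene of the growth factor neurturin, held 6 60-min-only intervals from 2.46 to 16.4 kb into its 23.3 kb. FAM222A also held 6, from 0.649 to 17.4 kb, with its only 5-min-only interval beyond them at 28.6 kb. BCAS2, which encodes a spliceosome protein, held 5 between 3.40 and 10.9 kb of its 14.1 kb. Its gene body had no peak at all in either 5 min list, against 5 and 7 peaks in the 60 min lists and 0 and 0 in the NT lists. The body of RETSAT, the gene of retinol saturase, likewise had 0 and 0 peaks at 5 min and 5 and 8 at 60 min, but 1 and 4 in NT. BRPF1, a subunit of histone acetyltransferase complexes, and ZNF823, a zinc finger gene, held 5 each.

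**Figure D2:**
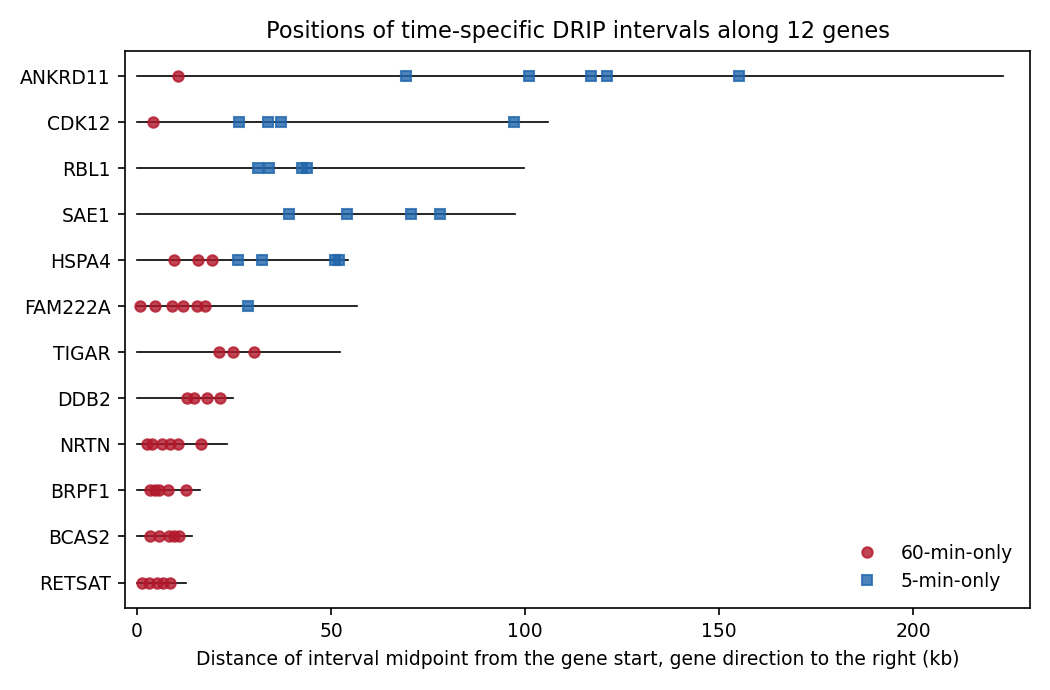
Positions of 60-min-only (red circles) and 5-min-only (blue squares) interval midpoints along 12 genes. The x axis is the distance from the gene start in kb, each black line is 1 gene to its end. In ANKRD11, CDK12, HSPA4 and FAM222A the red circles lie nearer to the start than every blue square.

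The same position was then measured in each list on its own, over all of its peaks in exactly 1 gene, which uses no class. In the first 20 kb of genes lay 47.9% and 52.3% of such peaks in the 5 min replicates and 72.1% and 72.9% in the 60 min replicates. The groups did not overlap, and the NT lists, at 47.2% and 48.1%, stood near the 5 min lists. The means were 50.1% ± 3.13 (SD, n = 2) and 72.5% ± 0.539, a difference of 22.4 percentage points, with p = 0.333 in a two-sided exact permutation test, the smallest p that 2 libraries against 2 allow. In genes over 50 kb the shares were 23.4% and 29.1% at 5 min and 50.4% and 56.8% at 60 min.

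Where the 60 min lists were higher, their lead was largest from 5 to 10 kb into the gene, which held 11.7% and 12.8% of gene peaks at 5 min and 22.4% and 22.1% at 60 min. Beyond 50 kb the order turned, with 34.4% and 26.7% at 5 min and 15.7% and 14.1% at 60 min. In the first 2 kb the lists overlapped, at 11.1% and 12.3% against 13.4% and 11.8% (exact permutation p = 0.667).

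**Figure D3:**
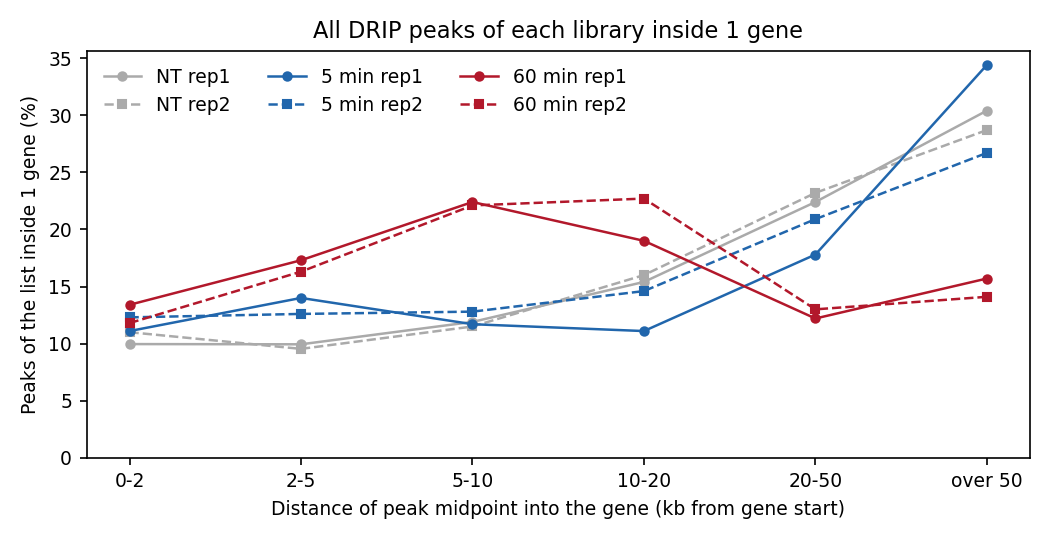
Percent of each library's gene peaks (y axis) by distance from the gene start in kb (x axis), 1 line per DRIP library, solid for replicate 1 and dashed for replicate 2. From 5 to 20 kb both 60 min lines lie above the 5 min and NT lines, and beyond 20 kb they lie below all of them.

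By gene part, 60-min-only intervals were promoter intervals more often and intergenic ones less often. A promoter here is the 5′ UTR and 10 kb upstream and a terminator the 3′ UTR and 10 kb downstream, each by the interval midpoint. Promoters held 25.6% (24.5 to 26.7%) of the 60-min-only and 6.13% (5.19 to 7.22%) of the 5-min-only intervals, beside 18.5% of all intervals. Outside genes lay 5.17% (4.64 to 5.76%) and 31.2% (29.2 to 33.1%), beside 20.2% of all.

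Introns took nearly equal shares, 51.1% and 51.2%, and exons 1.49% and 1.36%. Terminators held 16.6% (15.7 to 17.5%) of the 60-min-only and 10.2% (8.98 to 11.6%) of the 5-min-only intervals. The direction of the promoter and intergenic differences held when any 1 library was left out. Their size depended on replicate 2 of 60 min. Without it the promoter difference of 19.5 percentage points was 4.23 and the intergenic difference of -26.0 was -4.64, while without replicate 2 of 5 min the latter was -40.8.

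**Figure D4:**
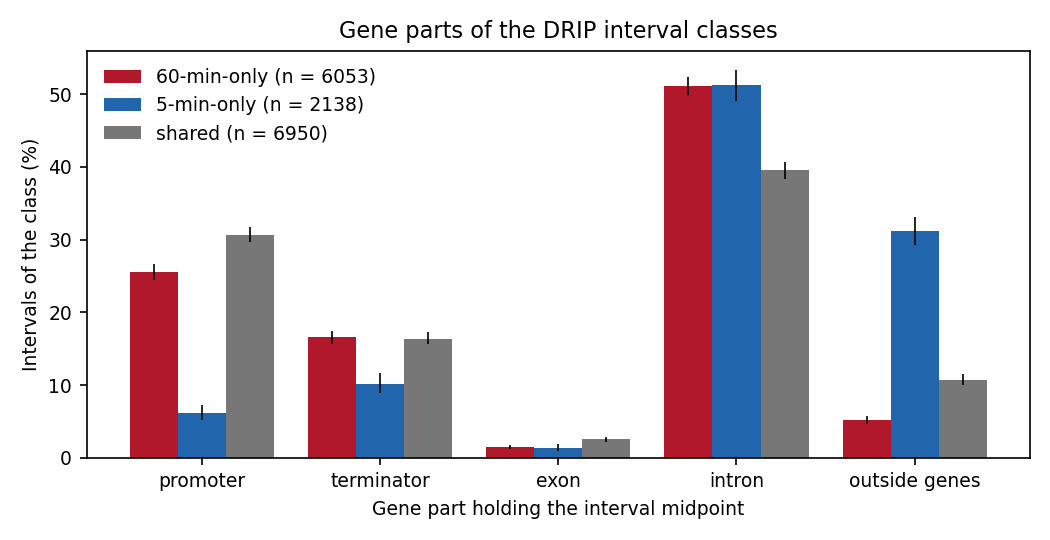
Percent of each class (y axis) whose interval midpoint lay in each gene part, with 95% Wilson intervals as error bars. The 60-min-only bars exceed the 5-min-only bars at promoters (25.6% against 6.13%) and terminators (16.6% against 10.2%), and the order is reversed outside genes (5.17% against 31.2%).

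Measured to the nearest protein-coding transcription start site (TSS) whether or not inside its gene, the median distance was 7973 bp for 60-min-only, 51052 bp for 5-min-only and 5103.5 bp for shared intervals. Of the 60-min-only intervals 55.2% lay 1 to 10 kb from a TSS and 6.39% within 1 kb. For the 5-min-only class these shares were 8.37% and 1.03%, and 29.7% lay over 100 kb away, against 4.23%. Of all intervals 31.3% lay 1 to 10 kb from a TSS, 5.53% within 1 kb and 18.7% over 100 kb away. An interval covered a TSS in 253 60-min-only cases (4.18%) and 13 5-min-only cases (0.608%), beside 4.47% of all intervals. Of shared intervals 32.1% did. Their median width was 3624 bp against 945 bp for 60-min-only ones, and the part of width in this was not tested. Of the intervals within 10 kb of a TSS, 73.2% of the 60-min-only ones were on its downstream side, with a median of 3968 bp past it, against 42.8% of the 201 5-min-only ones. The share within 10 kb, 61.6% and 9.40%, differed by 52.2 percentage points, and by 15.0 without replicate 2 of 60 min.

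Per list, 33.0% and 41.2% of all peaks lay within 10 kb of a TSS at 5 min and 53.2% and 53.5% at 60 min, with no overlap (difference 16.3 percentage points, exact permutation p = 0.333). Promoter peaks were 17.6% and 21.9% of the 5 min lists and 25.8% and 26.2% of the 60 min lists (difference 6.22, exact permutation p = 0.333). Peaks outside genes, at 30.8% and 14.9% against 15.0% and 10.8%, overlapped between the times (exact permutation p = 0.667). Without replicate 1 of 5 min their difference of -9.97 percentage points was -1.98. Peak numbers also overlapped, 33852 and 56543 against 41668 and 72879 (exact permutation p = 0.667), and the mean difference of 12076 peaks turned to -3529.5 without replicate 2 of 60 min.

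Among the highest 60-min-only intervals, ranked by fold enrichment over input within each list, most of those in or after genes lay a few kilobases past the TSS. In CHSY1, a chondroitin synthase gene, an intronic interval of 2721 bp was centred 3556 bp past the TSS, with fold enrichments of 9.73 and 15.8 in the 60 min replicates and no peak in either 5 min or NT list, but peaks in the RNase H lists of replicate 2 of both times. SDHAF4, an assembly factor of succinate dehydrogenase, carried an intronic interval 7466 bp past its TSS (9.07- and 10.2-fold), and SPATS2L another at 7385 bp (7.91- and 9.23-fold). The exception was KCNQ1, a potassium channel gene, whose interval lay 249715 bp into the gene (9.50- and 10.8-fold).

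Of the terminator intervals, that of HMGN2, which encodes a nucleosome-binding protein, reached 8.82- and 11.8-fold at 9004 bp past its TSS, beyond the end of the 4.20 kb gene. FDXR, the ferredoxin reductase gene and a known p53 target, carried 9.01- and 13.7-fold enrichment at 12040 bp, and EFNB1, the gene of ephrin-B1, 7.47- and 11.4-fold at 12620 bp in its 3′ UTR. The FDXR interval is also 511 bp from another TSS.

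The highest promoter intervals lay well upstream of the named gene rather than at its start. They belonged to TMEM198 (6738 bp upstream, 12.4- and 10.5-fold), SMC1B, a meiotic cohesin gene (at -5720 bp, 8.47- and 10.2-fold), THBS3, a thrombospondin gene (6652 bp upstream, 8.08- and 16.7-fold), and EXD3 (at -5990 bp, 8.97- and 9.09-fold). The SMC1B interval is 5646 bp inside its neighbour RIBC2, measured from that TSS, and the EXD3 interval is 5851 bp past the TSS of NOXA1. Outside genes the 2 highest were 473 kb from the TSS of PABPC4L (7.47- and 7.73-fold) and 133 kb from that of GRIA3 (12.8- and 7.05-fold). Of the 14 highest 60-min-only intervals, 5 were met by peaks of both NT lists, those of TMEM198, THBS3, EXD3, FDXR and near GRIA3. An RNase H list of 60 min met 13 of the 14, all of them in replicate 2 and that of SDHAF4 also in replicate 1.

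The highest 5-min-only intervals in gene bodies lay far from the start. That of SLC38A1, a glutamine transporter gene, was 78984 bp into the gene, with fold enrichments of 6.82 and 7.75 in the 5 min replicates and no 60 min peak. Exonic intervals were those of NRDC, which encodes the endopeptidase nardilysin, at 86391 of 89.6 kb (7.33- and 6.40-fold), and of KTN1, which encodes kinectin, at 89031 bp (7.22- and 6.23-fold).

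Terminator intervals of the 5-min-only class included that of KPNB1, the importin beta gene, 32971 bp past its TSS (5.25- and 7.65-fold), and those of CLNK (5.52- and 5.94-fold), UQCC2, a complex III assembly factor (5.04- and 6.87-fold), and LAT2 (5.21- and 5.17-fold). Promoter intervals were few, 131 in all. The highest were those of P2RX2, an ATP-gated channel gene (5.70- and 7.72-fold, 498 bp upstream), ESPNL (5.22- and 5.77-fold, 263 bp), CBLC, a ubiquitin ligase gene (5.15- and 5.46-fold), and BTNL8 (4.79- and 5.45-fold). Both of the highest intergenic intervals lay nearer to a TSS than those of the 60-min-only class, 20.9 kb from the TSS of CMA1 (6.24- and 8.53-fold) and 24.6 kb from that of SUSD2 (6.16- and 8.64-fold). Of the 14 highest 5-min-only intervals, 4 were met by both NT lists, those of P2RX2, ESPNL, UQCC2 and near CMA1, and 8 by the RNase H list of 5 min replicate 2.

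By a stricter rule on whole gene bodies, 662 genes (3.28%) had a peak of both 60 min lists and of neither 5 min list, and 182 genes (0.903%) the reverse. All 4 lists had a peak in 7362 gene bodies (36.5%). The median length of genes with a 60-min-only interval was 43.7 kb and of those with a 5-min-only interval 106 kb, and over all protein-coding genes it was 27.2 kb. Of genes under 10 kb, 6.89% held a 60-min-only and 0.171% a 5-min-only interval. Of 1503 genes over 200 kb, 339 and 301 did. A gene with a 60-min-only interval also held a shared one in 44.6% of cases (1803 genes, 8.94% of all), and a gene with a 5-min-only interval in 43.3%.

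Among p53 target genes, 10 of 28 held a 60-min-only interval (35.7%, beside 20.1% of all genes) and 2 a 5-min-only interval (7.14%, beside 5.74%). A shared interval was held by 20 of the 28 (71.4%, beside 28.8%), so peaks at both times were also frequent in this list. DDB2, a DNA damage recognition gene, held 4 60-min-only intervals from 12.8 to 21.5 kb into its 24.8 kb, and TIGAR, a regulator of glycolysis, 3 from 21.2 to 30.1 kb. CDKN1A, the gene of the cell cycle inhibitor p21, held 1 at 8.26 kb (5.75- and 9.52-fold), MDM2, the p53 ubiquitin ligase, 1 at 4.97 kb (6.94- and 5.71-fold) and TNFRSF10B, a death receptor gene, 1 (5.87- and 6.05-fold). The 2 with a 5-min-only interval were ZMAT3, at 87480 bp, and PPM1D, at 31095 bp. No member met the gene body rule in either direction.

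Immediate early genes, induced within minutes of a stimulus, held a shared interval in 28 of 34 cases (82.4%, beside 28.8% of all genes). A 60-min-only interval was held by 5 of them (14.7%, beside 20.1% of all genes and 6.89% of genes under 10 kb). A 5-min-only interval was held by 0 (beside 5.74% and 0.171%). The median length of these genes was 5.07 kb. EGR2, a zinc finger transcription factor, had no 5 min peak in its body, and its terminator interval of 1585 bp reached 6.27- and 12.4-fold at 60 min. Heat shock and chaperone genes counted 10 of 34 with a 60-min-only interval (29.4%, beside 20.1%) and 1, HSPA4, with a 5-min-only interval (2.94%, beside 5.74%). A shared interval was held by 24 of these 34 (70.6%, beside 28.8%). DNAJB1, DNAJB6, DNAJC3, HSPA4 and HSPD1 held 3 60-min-only intervals each. Of cytosolic ribosomal protein genes 77 of 83 held a shared interval, 6 a 60-min-only (7.23%, beside 20.1% of all genes and 6.89% of genes under 10 kb) and 0 a 5-min-only one. Their median length was 5.55 kb. Replication histone genes, with a median length of 0.509 kb, held 20 shared of 64 and none of either class.

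For R-loop and topoisomerase factors, 6 of 28 held a 60-min-only interval (21.4%, near the 20.1% of all genes), among them BRCA1, TDP2 and RNASEH1, which encodes the ribonuclease that removes hybrids. TOP1, the gene of the CPT target itself, held the list's only 5-min-only interval, 36388 bp into its 95.7 kb (4.01- and 3.71-fold). Of SR splicing factors 3 of 14 held a 60-min-only interval (21.4%, near the share of all genes) and 0 a 5-min-only one. Of hnRNP genes 3 of 24 held a 60-min-only interval (12.5%, beside 20.1%) and 2, HNRNPC and HNRNPM, a 5-min-only one (8.33%, beside 5.74%). Of the epithelial markers 5 of 10 held a shared interval, beside 28.8% of all genes. Of markers of blood, stroma, liver and glia 0 of the 10 found did, with no expression measured. A 60-min-only interval was held by 2 of the 10 epithelial markers and 1 of the 10 other markers. A 5-min-only interval was held by 1 and 0 of them. The other marker with 60-min-only intervals was COL1A1, a collagen gene of stroma, which held 2. Its body had 0 and 1 peaks at 5 min and 3 and 9 at 60 min.

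The rule left the NT and RNase H lists unused. Neither NT list had a peak in 68.7% of the 60-min-only and 60.1% of the 5-min-only intervals, and both had one in 10.2% and 13.5%. Peaks of the RNase H library of 60 min replicate 2 met 67.1% (65.9 to 68.3%) of the 60-min-only intervals, 21.3% of the 5-min-only and 93.4% of the shared ones. Those of replicate 1, a list of 5392 peaks against 67188, met 1.02%. For the 5-min-only intervals the RNase H lists of 5 min met 1.54% and 26.9%.

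The part of RNase H-resistant signal in the result was not tested. The same measures were taken in intervals that no RNase H list of either time met. These were 1828 60-min-only (30.2%) and 1283 5-min-only (60.0%) intervals, beside 59.7% of all intervals. Within the first 20 kb of their gene lay 80.7% (78.5 to 82.8%) and 10.7% (8.64 to 13.2%), at promoters 25.3% and 5.38%, and outside genes 7.77% and 32.4%. The 3 differences were close to those over all members. Where peaks met by their own RNase H list were instead removed before merging, 77.2% of the 60-min-only and 32.4% of the 5-min-only intervals lay in the first 20 kb.

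The members of both classes were wider than most intervals but far narrower than shared ones. The median width was 945 bp for 60-min-only and 670.5 bp for 5-min-only intervals, beside 503 bp over all intervals and 3624 bp for shared ones. Their median fold enrichment stood at percentiles 45.4 and 62.6 of the 60 min lists for the 60-min-only class, and at 48.4 and 42.2 of the 5 min lists for the 5-min-only class. The lowest −log10 q of the weaker list was 1.316 and 1.301 and the median 3.02 and 2.58. Just outside the rule were 6638 intervals with both 60 min peaks and 1 of the 5 min peaks, and 2457 in the reverse case, with −log10 q in the odd list from 1.301 and 1.318 upward. The number of members depended on every library, since a time left with 1 list was judged by that list. The 60-min-only count of 6053 was 43944 without replicate 1 and 15440 without replicate 2 of 60 min, and 11912 without replicate 2 of 5 min. The 5-min-only count of 2138 was 22408 and 16183 without replicate 1 or 2 of 5 min, and 3947 without replicate 2 of 60 min.

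A 60-min-only interval was seldom far from 5 min signal. The nearest peak of either 5 min list was a median of 2.70 kb away and within 10 kb in 84.1% of cases, and the nearest shared interval was 20.7 kb away. A 5-min-only interval lay 7.31 kb from the nearest 60 min peak and 117 kb from the nearest shared interval. The GC content differed as well, with medians of 47.7%, 42.2% and 49.7% in the 60-min-only, 5-min-only and shared classes, and its part in the result was not tested. Per list it overlapped between the times, at 44.7% and 47.9% against 49.1% and 47.5%. Chromosome 19 held 8.24% of the 60-min-only and 4.02% of the 5-min-only intervals, beside 10.6% of shared and 5.49% of all intervals. Chromosome 8 held 3.92% and 7.02%, beside 4.90% of all, and chromosome X 2.10% and 0.748%, beside 1.46%. Per list, the chromosome 8 share of peaks overlapped between the times, at 6.17% and 4.49% against 4.50% and 4.22%.

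In shared intervals, the widest peak was more often wider than narrower at 60 min. Its median width went from 761 to 1101 bp in replicate 1 and from 1604 to 3141 bp in replicate 2. It was wider in both replicates in 51.4% of the intervals and narrower in both in 11.9%. For shared intervals in 1 gene and within 10 kb of a TSS, the edge on the downstream side of the gene lay farther out at 60 min in 52.6% (replicate 1) and 58.3% (replicate 2) and farther in for 764 and 318 of 3472 intervals. The upstream edge lay farther out in 40.6% and 43.4%. The median outward shift was 76.5 and 157.5 bp downstream and 0 bp upstream in both replicates.

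The height of the 6950 shared intervals, the log2 fold enrichment of the highest peak after quantile normalization, was compared with limma. None passed a Benjamini-Hochberg adjusted p of 0.05 in either direction (0% called, smallest adjusted p = 0.452), and at an unadjusted p under 0.05 322 (4.63%) were higher and 279 (4.01%) lower at 60 min. In simulated data of this size with 200 changed intervals, 25.5% of changes of 1 on the log2 scale and 100% of changes of 2 were found. Every simulated interval had the same spread, the median of the real ones, so these shares do not hold for intervals of larger spread. A 2-fold change was thus mostly not detectable with these libraries, and the absence of calls does not exclude larger changes. The values that follow are descriptions of differences that did not pass in this comparison. A height is relative to its own list and carries no spike-in scaling.

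The largest difference among intervals that moved the same way in both replicates was in an interval at BTG2. BTG2 is an antiproliferative gene, both an immediate early gene and a p53 target. The interval was 11215 bp wide with its midpoint 4118 bp past the TSS, and the highest peak was not placed within it. Its normalized log2 height was 2.63 and 2.96 at 5 min and 4.22 and 5.05 at 60 min, a difference of 1.84 ± 0.40 (SE, limma adjusted p = 0.452). Gene parts named here are by midpoint, and an interval can reach beyond its part. The next differences were at the terminators of C12orf57 (1.78 ± 0.39) and MARCKSL1 (1.64 ± 0.39) and the promoter of GLB1L (1.57 ± 0.39). Lower at 60 min were the terminator of CTPS1, the CTP synthase gene (-1.59 ± 0.37), the promoter of TMEM265 (-1.57 ± 0.38), an intron of TSNARE1 (-1.50 ± 0.38) and an intergenic interval near PPARA (-1.49 ± 0.37), all with the same adjusted p. With the replicate number as a block, a pairing that no label backs, limma adjusted p of these named intervals ran from 0.0025 (BTG2) to 0.0186 (TSNARE1).

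By position, the median log2 difference of shared intervals was above 0 from 1 to 10 kb from a TSS and below 0 both nearer to it and farther away. Within 1 kb it was -0.04, with 24.4% higher and 29.3% lower in both replicate pairs. From 1 to 10 kb it was 0.12, with 37.9% higher and 21.3% lower, beside 29.5% and 29.8% of all shared intervals. Over 100 kb from a TSS it was -0.36, with 8.75% higher and 56.4% lower. Outside genes it was -0.36 as well, with 7.90% higher and 55.7% lower, and median heights of 2.93 and 2.46 at 5 min and 2.47 and 2.12 at 60 min. These overlapped by a little between the times (exact permutation p = 0.667), whereas from 1 to 10 kb, at 2.61 and 2.68 against 2.73 and 2.80, they did not (exact permutation p = 0.333).

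**Figure D5:**
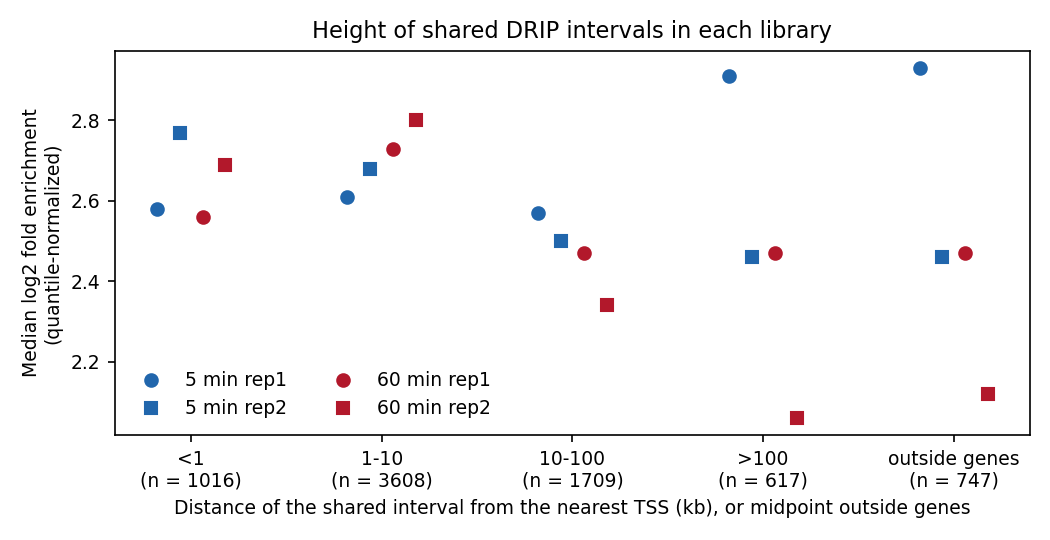
Median height of shared intervals (y axis, log2 fold enrichment after quantile normalization) in each library, by distance from the nearest TSS in kb or outside genes (x axis). From 1 to 10 kb both 60 min points lie above both 5 min points, and from 10 kb outward each 60 min point lies below the 5 min point of its replicate.

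By gene list, the 20 shared intervals of p53 targets had a median log2 difference of 0.41, 12 of them higher and 5 lower in both pairs. Their median heights were 3.07 and 2.91 at 5 min and 3.40 and 3.48 at 60 min. The 97 of ribosomal protein genes had -0.33, with 13 higher and 51 lower, from 3.76 and 3.77 to 3.41 and 3.50. Of the 10 in replication histone genes 9 were lower in both pairs, with a median of -0.69. Immediate early genes (0.03) and heat shock genes (-0.05) stood near the -0.01 of all shared intervals. Intervals in genes over 200 kb had -0.18.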

How the data were processed

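DRIP-seq of HCT116 cells was analysed from the narrowPeak lists deposited by the authors, 1 list per library called against its paired input. Per the submitters' processing notes, reads went through FastQC, cutadapt, BWA, SAMtools, MACS2 and deepTools with hg19 and sacCer3, the latter for a yeast spike-in. The calling threshold is not given in the sources used here. In the deposited lists each peak carries a fold enrichment over input (a ratio), the −log10 of its p and q, and a score. No spike-in scaling enters these values, and read depth is unknown from them, so no depth-based interval or floor is given.

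Peaks of the 4 DRIP lists were merged when they shared at least 1 bp. Gene parts, by interval midpoint and in the order promoter, terminator, exon, intron and outside, and TSS distances used 20163 protein-coding genes of GENCODE release 44 lifted to GRCh37, with 10 kb flanks. Classes were described with 95% Wilson intervals. Values per list were compared by a two-sided exact permutation test, which cannot go below 0.333 with 2 libraries against 2. This p ranks the observed difference among the relabellings of the 4 libraries and does not measure their spread. Nothing further says whether the labelled biological replicates were separate cultures on separate days. The height of shared intervals (log2 fold of the highest peak, quantile-normalized) was tested with limma 3.58.1 in R 4.3.3. Other steps used Python 3.11.15, NumPy 2.4.6, pandas 2.3.3, SciPy 1.17.1 and Matplotlib 3.10.9. The same-numbered libraries of both times correlated at r = 0.245 in their deviations from the group means, but with 2 pairs and no label of a shared batch the number was not used as a block.

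Named intervals are the 4 with the highest within-list percentile of fold enrichment in their weaker list for promoters, gene bodies and terminators of each class and the 2 highest outside genes, with the 6 genes of each class that held most intervals and the 4 shared intervals of largest height difference in each direction among those of 1 direction in both pairs. From each gene list at most 6 members with such an interval are named, by the same percentile. Some intervals that this rule picks are not reported here. The members and gene lists were chosen with earlier results of these data known. Alternatives were a higher q, lists of equal length, other merging and overlap rules, all annotated genes, removal of RNase H peaks, a replicate block and leaving out each library. On simulated data, all of 4000 intervals received their true class and all of 5000 single positions their true gene part. Among 6950 intervals simulated with the same spread, limma found 25.5%, 100% and 100% of 200 changed by 1, 2 and 3 on the log2 scale.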

Additional observations from a re-analysis of the deposited data

How the results depend on the processing

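Each time has 2 libraries, whose lists differ in length. Of the differences between the classes, those in promoters, outside genes, within 10 kb of a TSS and in the first 20 kb of the gene were recomputed, and none of these 4 changed direction. Which class had more intervals did change. A −log10 q of at least 3 gave 1001 5-min-only intervals, with differences of 60-min-only minus 5-min-only, in percentage points, of -29.5 outside genes and 56.3 within 10 kb of a TSS, and lists of equal length gave 53.9 for the latter. With peaks met by an RNase H peak removed there were 2406 60-min-only intervals, and the differences were 10.2 (promoter), -18.0 (outside genes), 29.4 (within 10 kb) and 44.8 (first 20 kb of the gene). Merging across 1000 bp gave 3583 60-min-only intervals and differences of 16.8 (promoter) and 47.0 (within 10 kb). Requiring peaks to cover 50% of the interval gave 3219 60-min-only intervals and differences of 17.9, -22.9, 47.6 and 69.6 in the same order of 4. Counting a time as absent unless both of its lists had a peak gave 12691 and 4595 intervals and differences of 16.0, -23.1, 41.3 and 53.5. Any overlap with a gene part gave 24.9 for promoters, and all annotated genes gave 27.3 (promoter), -15.1 (outside) and 44.6 (within 10 kb). The causes were not tested.

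Leaving out 1 library, or 1 replicate number of both times, gave 6832 to 46189 60-min-only and 2786 to 24013 5-min-only intervals. The 5-min-only class was the larger without replicate 1 of 5 min (22408 against 6832) and without replicate 2 of 5 min (16183 against 11912). The highest of both came without replicate 1 of both times, where 1 list stood for each time. The differences ran from 4.23 to 23.3 (promoter), from -40.8 to -4.64 (outside genes), from 15.0 to 54.7 (within 10 kb) and from 32.0 to 68.6 (first 20 kb), with the smallest size of each without replicate 2 of 60 min. The difference in peak number per list ran from -3529.5 to 27682 and turned below 0 without that library. With equal-length lists it is 0 by construction and has no value.

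With the replicate number as a block, limma called 33 shared intervals higher and 14 lower at 60 min, against 0 and 0 without it. The pairing rests on a number alone. The block changed no class, and p of the list comparisons was then 0.500, the smallest a test of 2 pairs allows. Without replicate 2 of 60 min 1 interval was called higher, so leaving out a library gave 0 to 1. With RNase H lists limited to the strongest peaks, the 60 min lists met 0.694% and 2.92% of 60-min-only intervals and the 5 min list of replicate 2 met 1.68% of 5-min-only intervals.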
